A study of Mus musculus with 3 samples.

Results

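The genes described here encode the proteins of the cytosolic ribosome. Members were taken by symbol, as every gene of the feature table named Rpl or Rps followed by a number, with or without the endings a, x, l, al or l1, and with pseudogenes left out. The rule found 79 of 32285 genes, of which 49 belong to the large subunit (Rpl) and 30 to the small subunit (Rps). It leaves out ribosome genes with other kinds of symbol, such as Rplp0, Rpsa, Fau and Rack1, and also Rps3a1. Of the 79, 76 reached 20 CPM (UMIs of the gene per 1000000 UMIs of the library) in at least 1 library and were compared between libraries. The other 3, Rpl10l, Rpl39l and Rpl3l, were at or near 0.

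The data are single-cell RNA-seq counts from small intestinal organoids, which are epithelial cells grown in a gel. All mice were C57BL/6 and received tamoxifen in 2 doses at 2 mg at an age of 7 to 8 weeks. WT organoids came from wild-type mice 21 days after tamoxifen. LApc organoids carried Lgr5-CreERT2 (Lgr5-EGFP-IRES-CreERT2 in the study's methods) with Apc fl/fl and were taken at 29 days, and LApcL organoids carried Lgr5-CreERT2 with Apc fl/fl and Lef1 fl/fl and were taken at 21 days. Apc is a brake on Wnt signalling, and Lef1 is a transcription factor that acts with β-catenin. Cre is driven by Lgr5, so recombination starts in Lgr5+ cells and reaches other cells through their offspring. Cells were passed through a 20 µm mesh at passage 3, day 6. Each group is 1 library from 1 mouse, so genotype and library cannot be told apart (nor the time after tamoxifen, which differs for LApc only), no test between groups was possible, and all intervals below cover counting error only.

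The libraries held 11411 (WT), 10706 (LApc) and 12068 (LApcL) barcodes with 87185429, 118867221 and 112057783 UMIs. Each UMI stands for 1 captured mRNA molecule, and each barcode for 1 droplet. The libraries shared barcodes: 3195 occurred in all 3, which is 26.5 to 29.8% of each library. In these shared barcodes the endothelial marker Pecam1 stood at 1052 to 1078 CPM and the epithelial marker Epcam at 2.22 to 12.4 CPM, which goes against the organoid label. Deep barcodes, those found in 1 library only with at least 10000 UMIs and at most 20% of UMIs from mitochondrial (mt-) genes, had Epcam at 1192 to 1967 CPM and Pecam1 at no more than 1.60 CPM. They numbered 1208 in WT, 2161 in LApc and 1931 in LApcL and held 56.1 to 76.4% of the UMIs. Apc stood at 20.0, 88.5 and 95.4 CPM and Lef1 at 0.961, 72.0 and 47.8 CPM in WT, LApc and LApcL. Counts of 3′ tags do not show whether the floxed exons were lost, so they are no check of the deletions. All values below are given for the deep barcodes, with the shared barcodes beside them.

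Each ribosome holds 1 copy of nearly every ribosomal protein, so cells make these proteins in fixed proportion. Their mRNAs are among the most abundant in growing cells, and most vertebrate ribosomal protein mRNAs start with a terminal oligopyrimidine (TOP) tract, a run of C and T at the 5′ end through which mTOR and Larp1 set their translation. In the intestinal crypt, stem and dividing cells make many ribosomes, whereas mature cells spend more of their mRNA on digestion, absorption and secretion. Several members have a retained paralog, such as Rps27l beside Rps27, some of which replace the parent in certain tissues.

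The TOP tract is the sequence feature for which these mRNAs are known, so start-site windows are shown for the members on which the results below turn, together with Rpl7a, which has the longest run. Promoter windows from RefSeq (GRCm38.p6) were matched for 60 of the 79 members. Each line gives 30 bases, 15 before the annotated start and 15 from it on, on the gene's strand, with the longest run of C and T that comes within 5 bases of the start in capitals.
Rpl7a: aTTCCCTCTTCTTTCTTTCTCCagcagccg
Rps27: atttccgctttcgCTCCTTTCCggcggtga
Rps27l: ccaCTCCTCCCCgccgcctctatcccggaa
Rpl22l1: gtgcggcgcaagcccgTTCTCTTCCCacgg
Rpl35: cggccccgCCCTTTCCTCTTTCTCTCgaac
Rps2: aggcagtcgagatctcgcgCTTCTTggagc
Rps3: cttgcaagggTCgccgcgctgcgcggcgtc
Rpl10: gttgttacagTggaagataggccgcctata
Rpl7l1: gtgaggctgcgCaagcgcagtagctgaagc
Rpl36al: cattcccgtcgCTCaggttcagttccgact
The windows lie at chr2:26910792-26910821 on the plus strand (Rpl7a), chr3:90213634-90213663 minus (Rps27), chr9:66946071-66946100 plus (Rps27l), chr3:28805493-28805522 plus (Rpl22l1), chr2:39005117-39005146 minus (Rpl35), chr17:24720048-24720077 plus (Rps2), chr7:99483695-99483724 minus (Rps3), chrX:74270801-74270830 plus (Rpl10), chr17:46782642-46782671 minus (Rpl7l1) and chr12:69184053-69184082 minus (Rpl36al).

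A run of at least 6 C or T bases within 5 bases of the start was present in 29 of the 60 member windows (48.3%), against 5664 of 27025 windows of all genes (21.0%). Only the gene's own strand was searched, and for genes with several annotated starts the first listed was taken. Windows of mitochondrial ribosomal protein genes held such a run in 18 of 69 cases (26.1%), those of ribosome biogenesis genes in 0 of 17, those of other TOP mRNAs in 4 of 11, and those of ribosome genes outside the symbol rule in 3 of 5. A window without a run says only that these letters are not beside this annotated start. The longest run was 21 bases in Rpl7a, while short runs were found in members that were relatively low in the mutant libraries (below), Rps3 with 2 bases and Rpl10 with 1, and in members that were relatively high, Rpl11 with 2 and Rpl7l1 with 1. Members with a run had a median deviation of 0.05 (28 members, log2 scale, defined below) in LApc against WT and members without one 0.00 (29 members), with 0.11 and 0.00 in LApcL against WT.

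Ribosomal protein genes made up 24.0% of UMIs in the WT deep barcodes, 20.9% in the LApc ones and 20.3% in the LApcL ones. The share was therefore lower in both mutant libraries than in WT, by 0.20 on the log2 scale in LApc and by 0.24 in LApcL, whereas LApcL and LApc differed by 0.04. Counting error was far smaller than these differences, with an exact 95% interval (Clopper-Pearson) of 23.96 to 23.98% in WT. The spread between cells was much wider: the share per barcode ran from 9.91 to 32.6% (5th to 95th percentile) in WT, from 11.4 to 28.0% in LApc and from 13.1 to 25.8% in LApcL. The medians were 25.2, 20.3 and 19.7%, and the SD between barcodes was 6.91, 5.04 and 4.06 percentage points against 0.235, 0.232 and 0.241 points from counting alone. The cells of all 3 libraries thus overlapped widely, and WT cells were the most varied.

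**Figure D1:**
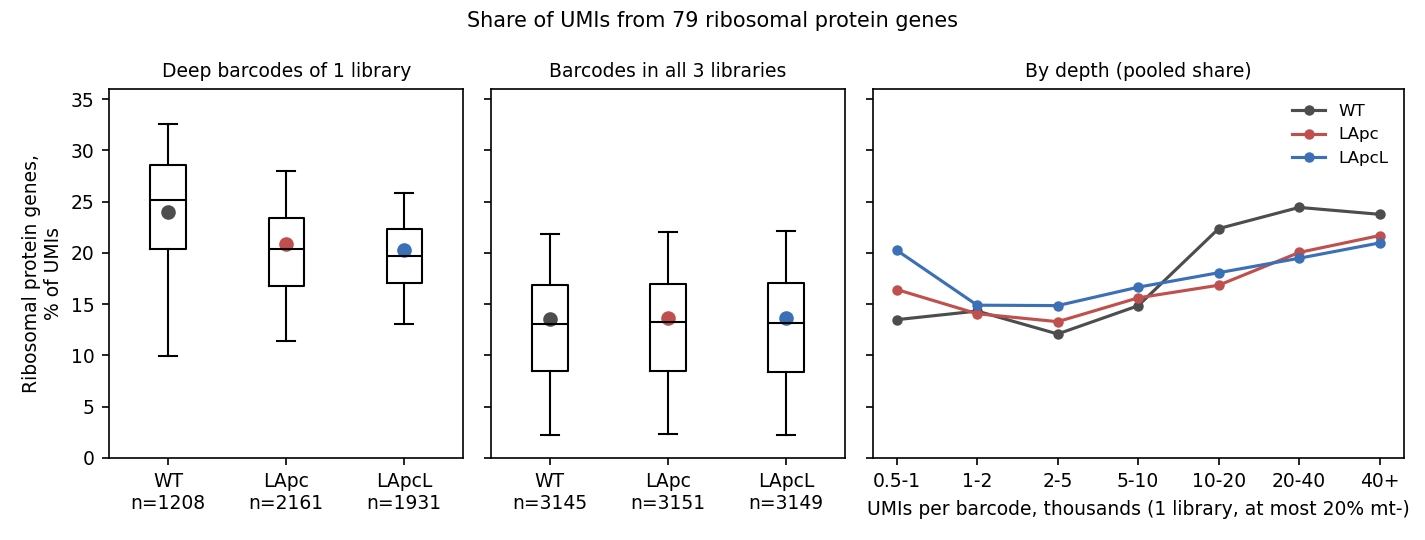
Share of UMIs from the 79 ribosomal protein genes, in percent, in the deep barcodes of 1 library (left), in barcodes found in all 3 libraries (middle) and by UMIs per barcode (right). Boxes show the 25th percentile, median and 75th percentile over barcodes, whiskers the 5th and 95th percentiles, and dots the share of summed UMIs, which was 24.0, 20.9 and 20.3% in the deep barcodes of WT, LApc and LApcL and 13.6 to 13.7% in the shared ones.

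In the shared barcodes the share was 13.6% in WT and 13.7% in LApc and LApcL, and the log2 ratios were 0.01, 0.01 and 0.00 in size. These are the same barcodes counted in 3 libraries and not replicates. For the 3134 barcodes kept in all 3, the share in 1 library ranked the barcodes much as in another, with Spearman's rho from 0.980 to 0.986, as a description over barcodes that share their source and depth. Since these barcodes carry endothelial markers, and whether they reached the 3 libraries from 1 other source was not tested, their agreement says nothing of the spread between the organoid cultures.

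The share is given next by depth and by mitochondrial content, whose part in the difference between libraries was not tested. From 10000 to 20000 UMIs the share was 22.4% in WT, 16.8% in LApc and 18.1% in LApcL, so that LApcL was above LApc. Among barcodes of 20000 to 40000 UMIs it was 24.4% in WT, 20.0% in LApc and 19.5% in LApcL, and above 40000 UMIs it was 23.8, 21.7 and 21.0%. Below 10000 UMIs WT was no longer the highest: from 5000 to 10000 UMIs the shares were 14.8, 15.6 and 16.7%, and from 2000 to 5000 UMIs 12.1, 13.3 and 14.9%. The deep WT barcodes had a median of 10.5% mt- UMIs, against 5.64% in LApc and 6.39% in LApcL. WT was highest at 5 to 10% mt- UMIs (25.5, 21.7 and 20.5%), at 10 to 15% (23.6, 20.6 and 18.8%) and at 15 to 20% (20.7, 18.0 and 17.0%). Below 5% the shares of summed UMIs lay closer together, at 21.6, 20.2 and 21.0%, with LApcL again above LApc. Below 5% there were 87 barcodes in WT (SD 11.6 points), 837 in LApc and 539 in LApcL. Their medians per barcode were 24.5, 19.5 and 20.5%. Without mt- UMIs in the total the shares were 26.8, 22.3 and 21.8%, so the gap to WT was wider.

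Single members differed widely in level. Chromium counts 1 tag per captured molecule at the 3′ end, so the values need no correction for transcript length. In WT the 76 members had a median of 3096 CPM, with the lowest at 53 CPM, and the medians were 2872 CPM in LApc and 2714 CPM in LApcL. Rpl23, Rps20, Rps12 and Rpl13 were among the 5 highest in WT, at 6028, 5889, 5851 and 5727 CPM. The lowest were Rpl7l1, Rps27l, Rpl36al, Rpl22l1 and Rpl31 in all 3 libraries, 4 of which are paralogs of another member. The 10 most abundant members held 22.8, 21.2 and 22.0% of the ribosomal protein UMIs in the 3 libraries. Small-subunit genes held 45.9% of these UMIs in WT and 44.0% in both mutant libraries, against 48.1 to 48.3% in the shared barcodes.

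To find members that departed from the group, the log2 ratio of CPM + 1 between 2 libraries was computed for each member and the median of the 76 members was subtracted. The result is called the deviation. The member median was -0.14 in LApc against WT, -0.20 in LApcL against WT and -0.04 in LApcL against LApc. Over all genes tested the median log2 ratio was 0.49, 0.52 and 0.05, so the members lay lower still relative to the typical gene: 74 of 76 were below the all-gene median in LApc against WT, 74 in LApcL against WT and 63 in LApcL against LApc. On the CPM scale itself, 57, 57 and 51 members were below 0.

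Against WT, a small set of members departed from the rest. In LApc 11 of 76 members (14.5%) deviated by 0.32 or more on the log2 scale, 4 upwards and 7 downwards, and in LApcL 14 (18.4%) did, 6 upwards and 8 downwards. Over all genes tested, 81.7% lay that far from the member median in LApc against WT and 83.8% in LApcL against WT. These shares include the offset between the all-gene median and the member median, since other genes are not centred on the latter, and measured from the all-gene median they were 67% and 69.3%. The count of 11 in LApc became 7 in barcodes with at most 10% mt- UMIs, 7 among the 62 members without a near copy by symbol, and 5 in the mitosis-like clusters. The 62 leave out paralog pairs and members with a pseudogene by symbol, and with them Rpl7l1, Rps27l, Rpl7 and Rpl10, all among the 11. Copies under other symbols were not considered in that rule. In plain CPM, 3 members were higher by at least that much and 20 lower in LApc than in WT (all genes: 57.6% higher and 20.3% lower), and 3 were higher and 25 lower in LApcL (59.2% and 20.4%). The SD of the deviations was 0.25 and 0.29. In the shared barcodes, where the same barcodes were counted in each library and no spread between mice or cell types enters, it was 0.03 and 0.04 and 0 members passed 0.32. The members nearest to this threshold in LApc against WT were Rps21 (0.33) and Rps24 (-0.32) inside and Rpl11 (0.32, below the threshold before rounding) and Rpl5 (-0.31) outside. Both WT comparisons use the same WT library, so their values are given side by side and are not independent.

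Among the members that were relatively higher, the paralogs Rpl7l1 and Rps27l stood out. Rpl7l1, a relative of Rpl7 known from ribosome assembly (chr17:46773907-46782672, minus strand), was counted at 53, 92.2 and 96.7 CPM in WT, LApc and LApcL, deviations of 0.93 and 1.06 against WT. Rps27l (chr9:66946086-66949516, plus strand), a p53-responsive paralog of Rps27, stood at 497, 794 and 795 CPM, deviations of 0.82 and 0.88. Both were higher in each mutant library than in WT also in plain CPM. In the shared barcodes they were at 43.6 to 49.9 CPM and 183 to 187 CPM.

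Rpl7, a large-subunit protein (chr1:16101295-16104662, minus strand), was counted at 2758, 3553 and 2994 CPM, deviations of 0.51 and 0.32 against WT. Rps2, a small-subunit protein near the mRNA entry site (chr17:24718116-24721929, plus strand), stood at 3925, 4224 and 5018 CPM, deviations of 0.25 and 0.56. Over all deep barcodes Rpl7 was thus highest in LApc and Rps2 in LApcL. Within the mitosis-like clusters the deviations were smaller: Rpl7, at 2937, 3223 and 2930 CPM, had 0.32 (just under the threshold) and 0.31, and Rps2, at 5230, 5109 and 5294 CPM, had 0.15 and 0.34. Rpl7 shares 78.7% of the 91-base stretches at its 3′ end with other transcripts and Rps2 69.0%, so reads could be lost to or gained from copies. None of these copies is named in the feature table, so none has counts of its own here. Snhg9 overlaps Rps2 on the other strand.

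Rpl27, Rps21 and Rpl11 were also relatively high. Rpl27, a large-subunit protein, stood at 1159, 1291 and 1311 CPM, deviations of 0.30 and 0.38. Rps21, a small-subunit protein, was at 2255, 2563 and 2386 CPM (0.33 and 0.28). Rpl11, which with Rpl5 binds 5S rRNA and the p53 regulator Mdm2, was at 2532, 2854 and 2746 CPM (0.32 and 0.32). Its partner Rpl5 went the other way, at 2534, 1854 and 1744 CPM with deviations of -0.31 and -0.34.

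Rpl10 had the lowest deviation in both comparisons with WT. It joins the large subunit last and lies on the X chromosome (chrX:74270812-74273135, plus strand). Its 3 values were 2372, 1513 and 1435 CPM, deviations of -0.50 and -0.52. In the mitosis-like clusters it was at 2234, 1500 and 1446 CPM, with -0.39 and -0.31, so that it was under the threshold and not among the 3 lowest in LApcL against WT. All of its 3′ stretches occur in other annotated transcripts, and its pseudogene Rpl10-ps3 was counted at 29.1, 26.3 and 19.9 CPM.

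The other low members belong mostly to the small subunit. Rps3, which lies at the mRNA entry and also takes part in DNA repair (chr7:99477896-99483738, minus strand), was at 4414, 2940 and 2882 CPM, deviations of -0.44 and -0.41. Rps7, another Mdm2 binder, stood at 4467, 3075 and 2783 CPM (-0.39 and -0.48). Rps12, Rps20 and the large-subunit Rpl23 were among the 5 most abundant members in WT, at 5851, 5889 and 6028 CPM. They stood at 4125, 4213 and 4251 CPM in LApc and at 4015, 3867 and 3889 CPM in LApcL, with deviations from -0.34 to -0.43. In the mitosis-like clusters their deviations ran from -0.22 to -0.34, and of these only Rps20 in LApcL (-0.34) passed the threshold. No copy of a 3′ stretch was found for Rps3, Rps20 or Rpl23, whereas Rps12 shares 95.5% of its stretches.

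**Figure D2:**
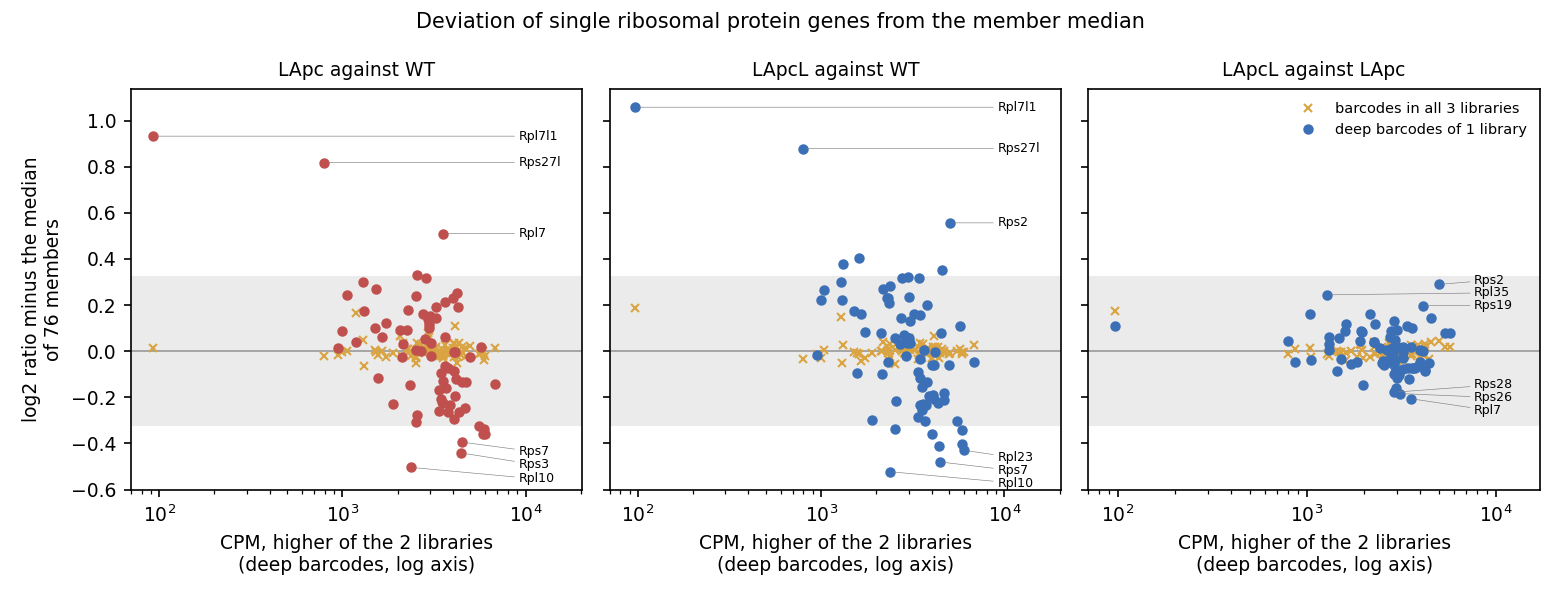
Deviation of each of 76 ribosomal protein genes from the member median (log2 scale) against its CPM in the higher of the 2 libraries (log axis), for deep barcodes (dots) and barcodes found in all 3 libraries (crosses). The grey band marks deviations below 0.32 in size; 11 members lie outside it in LApc against WT, 14 in LApcL against WT and 0 in LApcL against LApc, and no cross does.

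Between LApcL and LApc, which differ in the Lef1 fl/fl allele and in days after tamoxifen, 0 of 76 members deviated by 0.32 or more, against 27.9% of all genes tested (25.5% measured from the all-gene median). In plain CPM 0 members were that much higher and 0 lower (all genes: 14.5% higher and 12% lower). The deviations had an SD of 0.10 and ranged from -0.21 to 0.29. The highest were Rps2 (0.29), Rpl35 (0.24, at 1106 CPM in LApc and 1274 in LApcL), Rps19 (0.20, at 3697 and 4122 CPM), Rpl38 (0.16) and Rpl31 (0.16). Rps19 is the gene most often mutated in Diamond-Blackfan anaemia, and Rpl38 is known for its part in the translation of Hox mRNAs. The lowest were Rpl7 (-0.21, but 0.00 within the mitosis-like clusters), Rps26 (-0.18, at 3126 and 2675 CPM, also a Diamond-Blackfan anaemia gene), Rps28 (-0.18, at 2906 and 2497 CPM), Rpl13a (-0.16, at 2990 and 2599 CPM) and Rps27 (-0.14, at 1987 and 1748 CPM). In the shared barcodes the SD was 0.03, which again holds no spread between mice. Rpl35 shares 77.7% of its 3′ stretches with 3 other genes together, of which Gm2000 was counted at 45.9 CPM in LApc and 53.4 CPM in LApcL.

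The paralog pairs were compared as UMIs of the paralog per 100 UMIs of the parent, a ratio within a library that does not depend on the total. For each 100 Rps27 UMIs there were 23.1 Rps27l UMIs in WT, 39.9 in the LApc library and 45.5 in the LApcL library, with 95% counting intervals under 1 UMI wide on either side. In the shared barcodes the ratio was 7.69, 7.41 and 7.51. Across clusters it spanned 15.8 to 36.2 in WT, 20.5 to 51.9 in LApc and 25.3 to 59.1 in LApcL, so that single clusters of different libraries overlapped. The mitosis-like clusters, the only named cluster found in every library, had 33.4, 51.9 and 50.1. Rps27 has a near copy, Rps27rt, which was counted at 54.2, 56.2 and 37.7 CPM.

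Against WT the other pairs differed less, and some genes stood at the detection limit. Rpl7l1 was at 1.92, 2.60 and 3.23 per 100 Rpl7 UMIs in WT, LApc and LApcL (2.56, 2.65 and 2.94 in the shared barcodes). Rpl22l1, which is known to share RNA targets with Rpl22, was at 65.5, 72.2 and 67.6 per 100 Rpl22 UMIs, and at 44.7 to 45.6 in the shared barcodes. Rpl36al was at 60.5, 66.1 and 63.8 per 100 Rpl36a UMIs (48.9 to 49.0 shared), and in the 38 WT enteroendocrine-like cells it was counted above the parent, at 125 (interval 113 to 139). Rpl36a shares 100% of its 3′ stretches with pseudogenes and Rpl36al 74.8% with other transcripts, so this ratio depends on which reads could be assigned. Rpl10l, a testis gene, had 0 UMIs in every library, which allows up to 0.0614, 0.0330 and 0.0373 CPM. Rpl39l, also a testis gene, had 0, 2 and 0 UMIs, and Rpl3l, a gene of heart and skeletal muscle, had 5, 9 and 6.

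**Figure D3:**
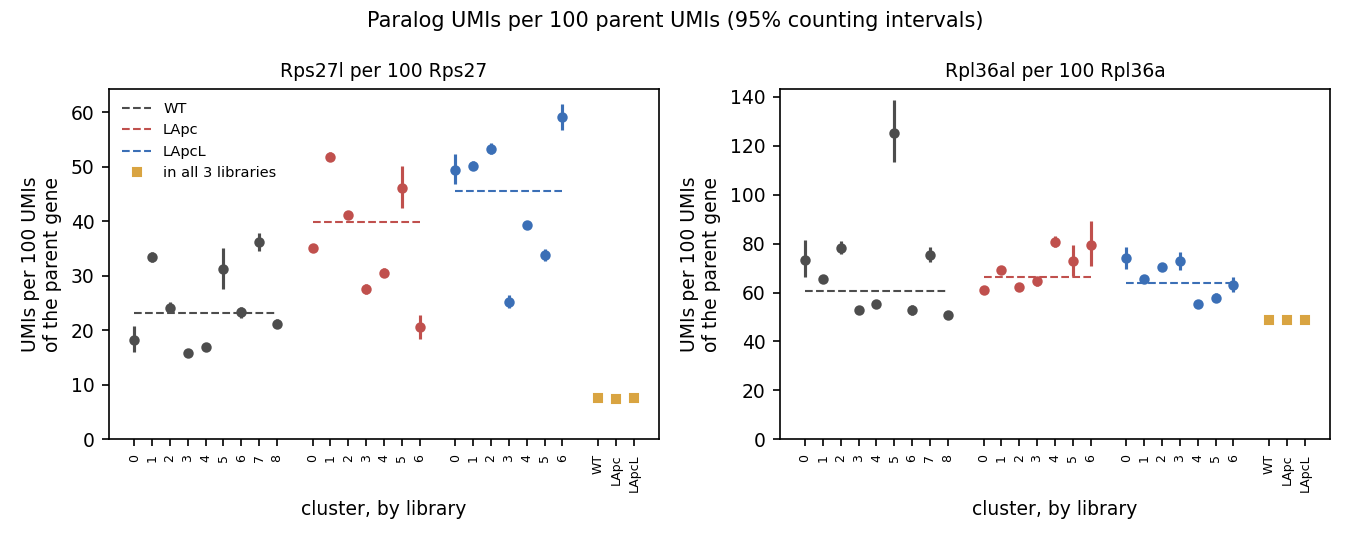
UMIs of Rps27l per 100 UMIs of Rps27 (left) and of Rpl36al per 100 UMIs of Rpl36a (right) in each cluster of deep barcodes, with 95% counting intervals, and in the barcodes found in all 3 libraries (squares). Dashed lines mark the whole library, 23.1, 39.9 and 45.5 for Rps27l, and the highest Rpl36al point is the WT enteroendocrine-like cluster (cluster 5) at 125.

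The deep barcodes of each library were clustered without ribosomal protein or mt- genes, and the clusters are described without a test. The share varied most within WT, where it spanned 15.7 percentage points over 9 clusters, against 7.49 points over 7 clusters in LApc and 4.67 points over 7 clusters in LApcL. In WT the highest share, 29.0%, was in a cluster of 168 cells led by Sema7a and Fgfbp1 with the stem cell gene Lgr5 among its 10 leading genes. A cluster of 113 cells led by the goblet genes Muc2 and Agr2 had 27.8%. It was mixed: at a finer clustering 81 of its cells fell in a cluster led by Olfm4, Itln1 and the replication genes Uhrf1 and Mcm4, with a share of 28.4%, and the other 32 in a cluster led by Muc2, Agr2 and Spink4, with 26.2%. Its Lgr5 level, 47.7 CPM, was above that of the Sema7a-led cluster, 31.9 CPM. The mitosis-like cluster (177 cells) had 25.9%. The lowest were a cluster of 129 cells led by the absorptive genes Cyp2c29, Clec2h and Ggt1, at 14.0%, and the 38 enteroendocrine-like cells, at 13.2%.

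The WT clusters led by Cltrn, by Sult6b2 and Fabp1, and by Cyp2c29 carried most of the enterocyte marker UMIs, summed at 39336 CPM for the 489 cells together against 8821 CPM in the remaining WT cells. They were grouped after their values were seen and rest on too few leading markers for a cell type name. Their joint share was 20.9%, against 26.3% in the rest of WT. Between these 3 clusters the share ran from 25.4% (Sult6b2- and Fabp1-led) through 20.3% (Cltrn-led) to 14.0% (Cyp2c29-led).

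**Figure D4:**
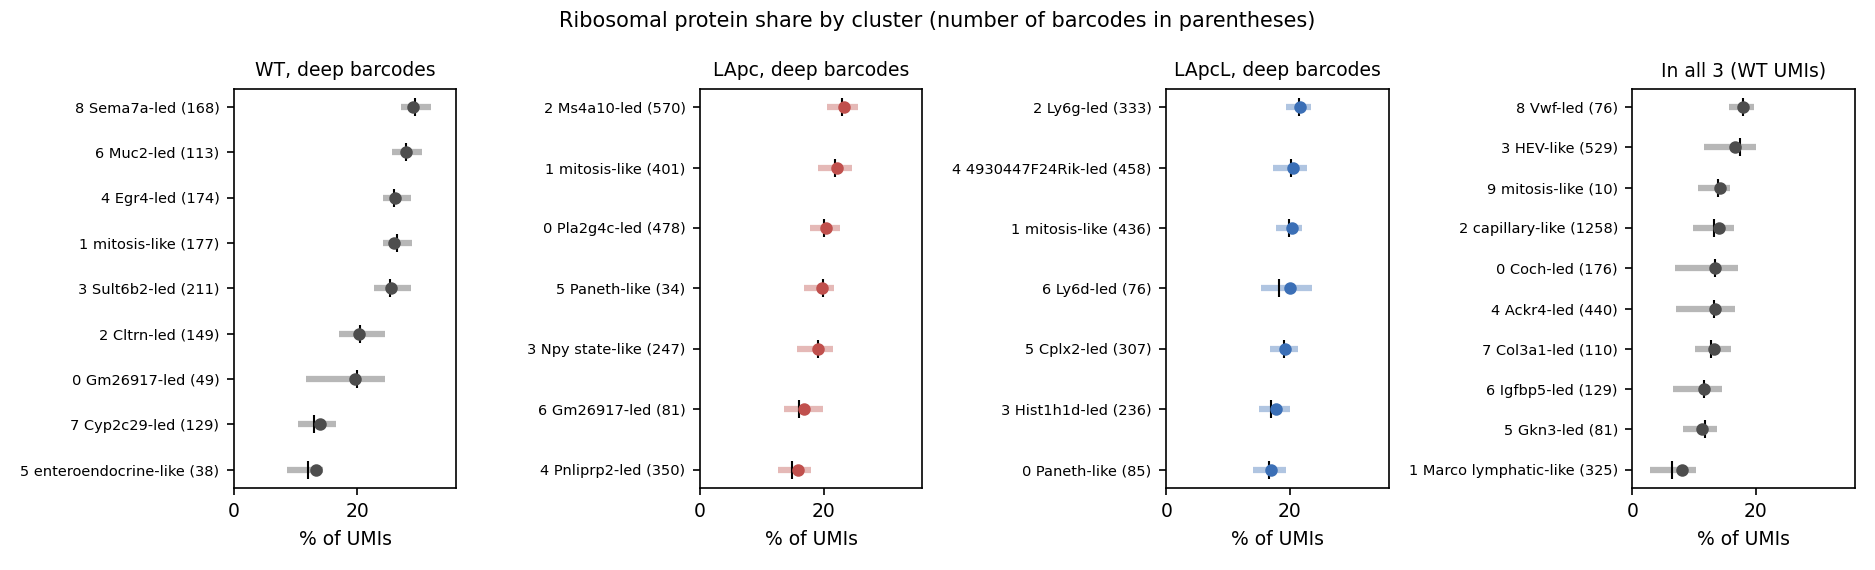
Share of UMIs from ribosomal protein genes, in percent, by cluster for the deep barcodes of WT, LApc and LApcL and for barcodes found in all 3 libraries (WT counts). Dots show the share of summed UMIs, bars the 25th to 75th percentile over barcodes and ticks the median; the WT clusters run from 13.2 to 29.0%, the LApcL clusters from 17.0 to 21.7%.

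In LApc the cluster led by Ms4a10 had the highest share, 23.3%, followed by the mitosis-like cluster at 22.2%. The Paneth-like cluster (34 cells, led by Defa24 and Lyz1) had 19.7%, and the lowest share, 15.8%, was in 350 cells led by Pnliprp2 and Npy. In LApcL a cluster led by Ly6g had 21.7%, the mitosis-like cluster 20.3% and the Paneth-like cluster (85 cells) the lowest share, 17.0%. Clusters led by Gm26917 or histone genes had 19.6% in WT, 16.9% in LApc and 17.8% in LApcL, together with the highest mt- shares of their libraries (12.9, 13.1 and 12.4%). Within the mitosis-like clusters alone the order of the libraries was the same, at 25.9, 22.2 and 20.3%, log2 ratios of -0.22, -0.35 and -0.13 for LApc against WT, LApcL against WT and LApcL against LApc.

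Within WT, other states were set against the cluster with Lgr5 among its leading genes. The mixed Muc2-led cluster, most of whose cells were Olfm4-led at the finer clustering, differed from it by -0.06 in log2 share, and 0 of 76 members deviated by 0.32 (all genes: 38.2%). In the mitosis-like cluster 3 members passed, all upwards (all genes: 52.6%), namely Rps27l (0.59, at 712 against 529 CPM), Rpl22l1 (0.36) and Rpl36al (0.33). The grouped Cltrn-, Fabp1- and Cyp2c29-led clusters had 1 member up and 2 down (all genes: 66.5%). Rpl36al was relatively high (0.41), whereas Rps2 was relatively low (-0.44, at 2921 against 5521 CPM).

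The enteroendocrine-like cluster lay farthest from the Lgr5-containing cluster, at -1.13 in log2 share, with 9 members up and 8 down (all genes: 92.7%). Rpl36al (1.01, at 887 against 958 CPM) and Rpl37a (0.72, at 2720 against 3582 CPM) were lower by less than the other members. Rpl39 was the lowest, at 1068 against 3373 CPM (-0.54).

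In LApc the Pnliprp2- and Npy-led cluster differed from the Ms4a10-led cluster in 4 members up and 6 down (all genes: 79.6%). Rpl7 was relatively the highest, at 3953 against 3403 CPM (0.76), and Rps2 the lowest, at 2383 against 4969 CPM (-0.51). Rpl7 held 2.50% of all ribosomal protein UMIs in the Npy-led cluster and 1.90 and 2.00% in the Npy state-like and Pla2g4c-led clusters of LApc. It held 0.88 to 1.46% in the remaining LApc clusters, 1.05 to 1.72% in the LApcL clusters and 0.86 to 1.3% in the WT clusters.

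Paneth-like cells were found in both mutant libraries, and the same 3 members were the highest in each. Against the other cells of their library, Rpl41, Rpl10 and Rps24 deviated by 0.63, 0.52 and 0.51 in LApc and by 0.41, 0.51 and 0.48 in LApcL. In each library 3 members were up and 4 down (all genes: 65.6% in LApc and 60.3% in LApcL). Rpl41, whose product is the smallest ribosomal protein, stood at 6112 against 4233 CPM in LApc and 5028 against 4556 CPM in LApcL. Its near copy Gm10076 was itself counted at 236, 539 and 565 CPM in WT, LApc and LApcL. Between the Paneth-like clusters of LApcL and LApc 1 member deviated by 0.32 (all genes: 43.4%), Rpl7l1, with an interval of -0.08 to 0.84.

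The mitosis-like clusters were named from the same marker list in each library but may differ in make-up. At the finer clustering the mitosis-like cluster went from 177 to 180 cells in WT, from 401 to 255 in LApc and from 436 to 314 in LApcL. Clusters led by replication genes such as Cdc6, Ung and Uhrf1 then stood apart in LApc and LApcL. Within the mitosis-like clusters 5 members deviated in LApc against WT (2 up and 3 down, all genes: 72.1%). In LApcL against WT 10 did (6 up and 4 down, all genes: 80.5%). Rps27l (0.64 and 0.52) and Rpl7l1 (0.64 and 0.77) were again the highest. Rps3 was again among the lowest (-0.36 and -0.36), with Rpl10 (-0.39, but -0.31 in LApcL) in LApc and Rps7 (-0.38, but -0.29 in LApc) in LApcL. Between LApcL and LApc 0 members deviated (all genes: 27.5%).

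The share was also compared between barcodes with and without UMIs of Lgr5 or of a list of mitosis genes, after each barcode was thinned to 10000 UMIs. WT barcodes with at least 1 Lgr5 UMI had a mean share of 26.9% ± 4.31 (SD, 125 barcodes) and those with none 23.5% ± 7.07 (1083 barcodes). In LApc the means were 20.5% (486 barcodes) and 19.9% (1675), and in LApcL 19.4% (998) and 19.9% (933). Barcodes with at least 3 UMIs of the mitosis list had a higher mean than those with none in every library, at 25.8 against 22.8% in WT, 21.2 against 19.2% in LApc and 20.0 against 19.2% in LApcL. The SDs between barcodes, 3.76 to 7.20 points, were larger than each of these differences.

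In the barcodes found in all 3 libraries, ribosomal protein genes held less of the UMIs and were made up differently. Against the WT deep barcodes their log2 share was -0.82, and 12 members were up and 11 down relative to the median (all genes: 90.3%). Rps21 (1.26, at 2894 against 2255 CPM), Rps3 (1.20, at 5436 against 4414 CPM) and Rps27 (1.09) were the highest, and Rpl12 (-0.83), Rpl10 (-0.72) and Rpl10a (-0.60) the lowest. The clusters of these barcodes ranged from 7.98 to 17.9% in the WT counts. The Marco lymphatic-like cluster (325 barcodes) had the lowest share, the capillary endothelial-like cluster (1258) had 13.9%, the high endothelial venule-like cluster (529) 16.6%, and a cluster of 110 led by Col3a1 and Acta2, which also had Pecam1 at 825 to 930 CPM in the 3 libraries, 13.2%.

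Members were compared between 2 pairs of these clusters, the Marco lymphatic-like and the high endothelial venule-like cluster each against the capillary endothelial-like cluster, and Rps3 had the highest deviation in both. In the Marco lymphatic-like cluster it stood at 7687 CPM in the WT counts, 7792 in the LApc counts and 7440 in the LApcL counts, against 3027, 2955 and 2951 CPM in the capillary endothelial-like cluster. Summed over the libraries its deviation between these clusters was 2.29, the largest of any pair described here, with 13 members up and 4 down (all genes: 87.2%). It held 9.63, 9.58 and 9.22% of all ribosomal protein UMIs in the Marco lymphatic-like cluster, 6.54, 6.45 and 6.52% in the Ackr4-led cluster and 5.68, 5.60 and 5.53% in the Coch-led cluster. In the capillary endothelial-like cluster it held no more than 2.17%, and in the clusters of deep barcodes 0.941 to 2.02%. Its deviation was 0.72 in the high endothelial venule-like cluster against the capillary one (5760 against 2984 CPM), followed by Rpl10 (0.38), while Rpl22l1 was the lowest (-0.58), with 2 members up and 2 down (all genes: 66%). No copy of the Rps3 3′ stretches was found among the annotated transcripts.

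**Figure D5:**
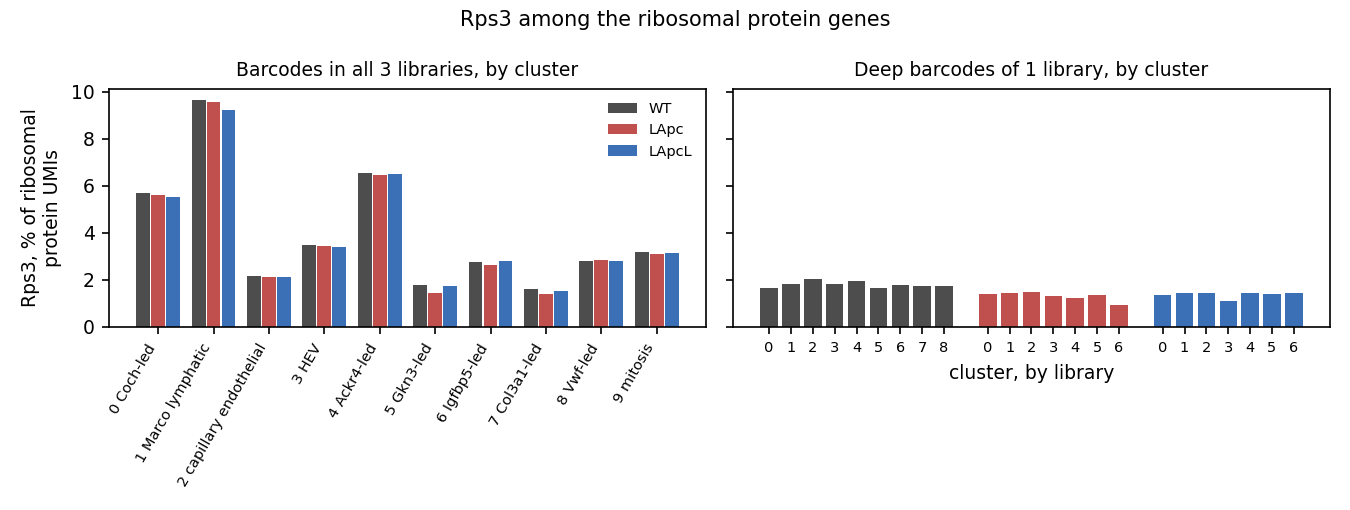
Rps3 as a percentage of all ribosomal protein UMIs, by cluster and library, in barcodes found in all 3 libraries (left, where the 3 bars of a cluster are the same barcodes) and in deep barcodes of 1 library (right). The Marco lymphatic-like cluster stands at 9.22 to 9.63%, the capillary endothelial-like cluster at no more than 2.17% and the deep clusters at 0.941 to 2.02%.

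Genes that act with the ribosome did not all follow the members. The ribosome genes outside the symbol rule had a median log2 ratio of -0.33 in LApc against WT and -0.24 in LApcL against WT. Fau, which encodes a small-subunit protein fused to a ubiquitin-like peptide, stood at 5685, 3585 and 3198 CPM, and Rack1, the scaffold on the small subunit, at 3191, 2118 and 2144 CPM. Among 17 other TOP mRNAs, 6 were higher by at least 0.32 in log2 CPM and 6 lower in LApc than in WT (5 and 7 in LApcL), where 57.6% of all genes were higher and 20.3% lower in LApc (59.2% and 20.4% in LApcL). Of the elongation factor mRNAs, Eef1a1 (8115, 5739 and 5409 CPM), Eef1b2 (2959, 1681 and 1504 CPM) and Eef2 (1423, 1011 and 935 CPM) were lower. Eef1d (211, 306 and 324 CPM) was higher, and so was Eef1g (754, 827 and 901 CPM), by less than 0.32. Npm1 (1107, 1489 and 1676 CPM), a nucleolar chaperone, and the splicing factor Hnrnpa1 (184, 431 and 535 CPM) were also higher.

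Ribosome biogenesis genes, which act before the proteins are assembled, went opposite to the members. Of 19 tested, 16 were that much higher in LApc and 18 in LApcL than in WT and 0 lower (all genes: 57.6% and 59.2% higher), with median log2 ratios of 0.83 and 1.02 against 0.49 and 0.52 over all genes. Nop16, Polr1a and Rrn3, at 19.7, 12.8 and 15.2 CPM in WT, passed the limit of 20 CPM only through the mutant libraries. Against WT these genes could therefore only come out higher. Ncl, which binds rRNA precursors, stood at 470, 834 and 1091 CPM, and Nop56, a core protein of the box C/D particles that methylate rRNA, at 80.1, 155 and 202 CPM. Nop10 was an exception, at 216, 209 and 193 CPM. Between LApcL and LApc 4 of 19 were higher and 0 lower, with a median of 0.17 (all genes: 14.5% higher and 12% lower).

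The 77 mitochondrial ribosomal protein genes tested had median log2 ratios of 0.09 in LApc and 0.21 in LApcL against WT, below the all-gene medians. Of 8 tested genes that control growth and translation, 5 were higher and 0 lower in LApc, and 5 higher and 1 lower in LApcL, shares close to those of all genes (57.6% higher in LApc and 59.2% in LApcL). Among them Mycl (3.76 CPM in WT) passed the limit of 20 CPM only through the mutant libraries, where it was higher. Myc, which drives transcription of ribosomal genes, was at 34.4, 54.4 and 63.7 CPM, and Larp1, which binds the TOP tract, at 72.4, 108 and 145 CPM. Of 8 tested p53 targets 8 were higher in LApc and 6 in LApcL than in WT, against 57.6% and 59.2% of all genes, and 5 were lower in LApcL than in LApc, against 12% of all genes. Phlda3 (4.60 CPM in WT) and Zmat3 (10.2 CPM) passed the limit of 20 CPM only through the mutant libraries. Against WT these genes could therefore only come out higher. Cdkn1a, the cell cycle inhibitor, was at 238, 424 and 317 CPM, and Rps27l, itself known as a p53 target, stood at 497, 794 and 795 CPM, and at 712, 978 and 818 CPM in the mitosis-like clusters of WT, LApc and LApcL.

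Within each library the members varied together from cell to cell. After thinning to 10000 UMIs, the summed Rpl and Rps UMIs of a barcode had a Spearman's rho of 0.97 in WT (1208 barcodes), 0.97 in LApc (2161) and 0.96 in LApcL (1931). These values describe barcodes that share a library, its depth and 1 fixed total. A single member against the sum of the others had a median rho of 0.74, 0.69 and 0.62. The lowest was Rpl7l1 in each library (0.08, 0.07 and 0.12), at about 1 UMI or fewer per thinned barcode, followed by Rps27l in WT (0.18) and LApcL (0.28) and by Rpl7 in LApc (0.33). Rps18 was the member closest to the rest in WT (0.87), Rpl32 in LApc (0.84) and Rpl27a in LApcL (0.76).

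Outside the member list, the genes most like the member sum over the 1208 WT barcodes, of 517 with at least 200 CPM, were Rps3a1 (rho 0.82), Rplp0 (0.78), Rpsa (0.77), Rplp2 (0.76) and Rplp1 (0.75). All 5 encode ribosomal proteins. The most opposite were Cyp3a11 (-0.55), Cyp2d26 (-0.53), Apob (-0.53), Prxl2a (-0.51) and Acsl5 (-0.50), among them 2 detoxifying cytochromes, the lipoprotein of lipid export and a fatty acid-activating enzyme. The member sum varied with the mitochondrial share in WT (-0.27) and LApcL (-0.24) and hardly in LApc (0.03), and with the biogenesis genes at 0.31, 0.28 and 0.07.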

How the data were processed

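Per the labels and methods, the authors made Chromium 3′ libraries (Reagent Kit v2 or v3, kit per library not given) and deposited whole-number UMI counts per gene and barcode. The submitters' processing notes name Cell Ranger 2.1.1 and mm10/GRCm38, whereas the deposited matrix headers name Cell Ranger 6.0.1. Members, gene lists and cell states were chosen with earlier results of these data known.

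Barcodes of 1 library only with at least 10000 UMIs and at most 20% mt- UMIs were kept as deep barcodes. Barcodes in all 3 libraries formed the shared set at the same mt- limit, and 116, 50 and 104 barcodes found in 2 libraries (WT, LApc and LApcL) were left out. UMIs were summed per library or cluster and scaled to CPM. Ratios used a pseudocount of 1 CPM, were computed for genes reaching 20 CPM in either library or state, and a deviation of 0.32 on the log2 scale was counted. With 1 library per group no test was made. The 95% intervals are exact (Clopper-Pearson for shares, Poisson for counts, conditional binomial for ratios) and cover counting error only. Floors use 3 counts. Depth was 32584 to 38074 UMIs per deep barcode (medians) and 1498 to 2200 per shared barcode.

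Clusters were made with scanpy 1.11.5 per library (total 10000, 2000 variable genes, 20 components, 20 neighbours, Leiden resolution 0.5) and named "-like" from marker lists. The finer clustering used resolution 1.0, and the Muc2-led cluster was traced in it after its values were seen. Doublets were kept: Scrublet called 0.745, 0.139 and 0.363% of deep barcodes in WT, LApc and LApcL, too few for a working call, so removal by score was tried only as an alternative. Members named are paralog pairs, the 5 highest and 5 lowest deviations per comparison, the 5 most and least abundant in WT and the 3 highest and lowest per pair of states; Rpl5, Rps24, Rps18, Rpl32 and Rpl27a and the genes of the lists were picked after their values were seen. Results for some genes are not reported here. Near copies were sought as exact 91-base stretches of the last 400 bases in GENCODE mouse release 21 transcripts. Start windows came from RefSeq (GRCm38.p6). On simulated counts the intervals held the true value for 94.8 to 95.5% of genes, all 100 genes set at 1.5-fold were counted and 0 of 100 at 1.1-fold. These counts followed the Poisson counting error that the intervals assume, with no spread between cells, mice or libraries. They check the calculation only. Python 3.11.15, NumPy 2.4.6 and SciPy 1.17.1 were used.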

Additional observations from a re-analysis of the deposited data

Results flagged for a closer look

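The difference in ribosomal protein share between barcodes with at least 1 Lgr5 UMI and barcodes with none had opposite signs in the libraries. After thinning to 10000 UMIs it was 3.39 percentage points in WT, 0.55 in LApc and -0.53 in LApcL, so that LApcL differed from LApc by -1.08 points and from WT by -3.92 points. The difference was not tested, since each group is 1 library. The SD between barcodes within a gate was 3.85 to 7.07 points, Lgr5 itself stood at 13.9, 34.7 and 90.0 CPM, and 125, 486 and 998 barcodes had a Lgr5 UMI.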

How the results depend on the processing

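The log2 share ratio kept its sign in each alternative of this paragraph, but not in every subset: LApcL was above LApc among deep barcodes of 10000 to 20000 UMIs (18.1 against 16.8%) and below 5% mt- UMIs (21.0 against 20.2%), and WT was not the highest below 10000 UMIs. Values are given for LApcL against LApc, LApc against WT and LApcL against WT in that order. With at most 10% mt- UMIs it was -0.022, -0.26 and -0.28, and with no mt- limit -0.032, -0.13 and -0.17. From 20000 UMIs it was -0.044, -0.19 and -0.23, and from 5000 UMIs -0.045, -0.18 and -0.22. With the shared barcodes added it was -0.045, -0.13 and -0.18. Without the highest Scrublet scores it was -0.047, -0.20 and -0.24, and without the 10% of barcodes with the most UMIs -0.027, -0.23 and -0.26. Thinning gave -0.030, -0.25 and -0.28, a total without mt- UMIs -0.034, -0.26 and -0.30, and the median over barcodes -0.044, -0.31 and -0.35. Without the 20 most abundant other genes they were -0.041, -0.27 and -0.31. Without the Cltrn-, Fabp1- and Cyp2c29-led, Muc2-led, Paneth-like and Npy clusters they were -0.11, -0.24 and -0.35, and in the mitosis-like clusters only, an alternative chosen after seeing the data, -0.13, -0.22 and -0.35.

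The count of members past 0.32 in LApc against WT, 11 as reported, was 7 with at most 10% mt- UMIs, 7 among the 62 members without a near copy by symbol and 5 in the mitosis-like clusters only. The 62 leave out Rpl7l1, Rps27l, Rpl7 and Rpl10, all among the 11. In LApcL against LApc the count was 1 after thinning and otherwise 0. In LApcL against WT it ran from 10 to 17, within 1.5 times the 14 reported. Of 360 recomputed deviations of named members, 359 kept their sign, 1 came to 0.00 (Rpl7 in LApcL against LApc in the mitosis-like clusters only, -0.21 as reported), and 188 lay outside the counting interval of the reported value. Other clusterings moved the span of cluster shares in WT to 16.1 and 16.7 points.

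No paired analysis was possible because each group is 1 library. Counts limited Rpl7l1 in small clusters (interval -0.08 to 0.84 between the Paneth-like clusters). The number of libraries limited every comparison, since the spread between mice is unknown. Of the 79 members, 49 share at least 1 near copy stretch and 28 share at least 50% with other transcripts. Only 9 share a stretch with another gene of the feature table. The part of these copies was not tested.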
